A study of Mus musculus with 12 samples.

Results

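Endogenous retroviruses of the ERV1 class are mouse relatives of the gammaretroviruses, the group that holds murine leukaemia virus (MuLV). The loci described here are the rows of the repeat table whose class and family read LTR/ERV1 and whose subfamily name holds neither MMVL30 nor RLTR6, the names of the VL30 elements. The choice used names only and no measured value. It took 58724 of the 3156417 loci in the table, in 194 subfamilies, and left out 2904 VL30 loci. At least 1 count in the 12 libraries was seen at 8939 of these loci, or 15.2%, against 20.7% of the 3009836 loci in the 4 repeat classes tested (LINE, SINE, DNA and LTR elements). Of the 8939, 6567 had only 1 to 9 counts over all libraries. The filter on low counts kept 585 loci and 109 subfamilies. The 585 loci held 89.1% of the counts of the whole set.

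The libraries are total RNA, depleted of ribosomal RNA, from naive CD4+ T cells of mouse spleen and pLN that were either Ddx55-knockout (KO) or wild-type (WT). Ddx55 encodes a DEAD-box RNA helicase. Cells of each genotype were collected after 0, 8 and 24 h on plates coated with anti-CD3 (5 ug/ml) together with anti-CD28 (2.5 ug/ml), a stimulus that acts through the antigen receptor and CD28. There were 2 libraries in each of the 6 groups, numbered 1 and 2, and values below follow that order. The labels name no strain, age, allele or Cre driver. They do not tell whether libraries of 1 group are from separate animals, so p-values measure only the spread between these libraries, which may be technical.

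Levels are given as CPM, the counts of a locus scaled by the library's gene count and by factors from the gene table, in which libraries held between 16810375 and 19126498 counts. Ddx55 stood in KO cells at 39.8%, 26.4% and 27.0% of its WT level at 0, 8 and 24 h. The 10 T cell markers summed to between 4097 and 6452 CPM in KO cells and between 3566 and 6858 CPM in WT cells, and all 10 had counts. At 24 h 3 of the 10 were higher in KO cells (adjusted p under 0.05) and 0 lower, and none passed at 0 or 8 h. Genes of other blood cells differed between the genotypes. The 8 basophil and mast cell markers summed to 296 and 785 CPM in KO cells, against 40.01 and 18.5 CPM in WT cells, at 0 h. Only 1 of the 8 passed (adjusted p under 0.05) at that time, with the higher level in KO cells. At 24 h the sums were 168 and 607 CPM in KO cells, against 9.80 and 8.60 CPM in WT cells, and 7 of the 8 were higher. The 10 markers of neutrophils and their progenitors summed to 509 and 509 CPM in KO cells, against 55.8 and 12.99 CPM in WT cells, at 0 h, when 7 of the 10 were higher, and to 21.9 and 86.3 CPM in KO cells, against 0.592 and 0.433 CPM in WT cells, at 24 h, when 4 were higher. At 8 h 0 of the 8 basophil and mast cell markers and 0 of the 10 neutrophil markers passed. The share of all tested genes that passed with a higher KO level was 4.63% at 0 h, 1.9% at 8 h and 17.8% at 24 h. No marker on these lists was at 0 in every library. At 0 h 1 of 3 tested B cell markers (8 listed) and 1 of 6 macrophage markers passed as well, higher in KO cells. The part of such cells in the results was not tested unless a value is given. In bulk RNA, fewer cells of a type and less RNA per cell cannot be told apart.

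An intact endogenous retrovirus is a stretch of gag, pol and env genes between a pair of long terminal repeats (LTRs), which carry its promoter and polyadenylation signal. Most loci in the genome are solitary LTRs or fragments. In the repeat table, MuLV and RLTR4 name the internal sequence and LTR of MuLV-related proviruses, and MMERGLN names the GLN family, whose replication is primed by a glutamine transfer RNA. The RMER, MLTR, MER and numbered LTR names cover mostly older insertions, and a tilde joins names merged into 1 row. In most adult cells such elements are kept silent by DNA methylation and by histone methylation laid down through TRIM28 and SETDB1. The LTR of MuLV is bound by factors active in T cells, such as RUNX1 and MYB. Host genes also use these sequences as promoters and exons. The sources used here do not say whether counting used strand, so reads of a locus and of a gene that overlaps it cannot be told apart. Near-identical MuLV and RLTR4 copies share reads, which makes values of single copies of those names uncertain.

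The 4 stretches of 300 bases printed here are start windows and exons of host genes at loci that carry the results. A start window also holds bases upstream of the gene. RefSeq starts Gm42048 at chr8:121833991 and D17H6S56E-5, on the minus strand, at chr17:35000774. The RefSeq gene Gm42048 starts inside the highest MMERGLN locus (chr8:121832845-121841264, mm10), and all 300 bases of its start window, chr8:121833741-121834040 on the plus strand, lie in that locus. The RefSeq gene D17H6S56E-5 starts at the edge of an RLTR4_Mm locus (chr17:35000213-35000742). Its start window is chr17:35000697-35000996 on the minus strand, and the 46 bases in capitals belong to the LTR. The other 2 are exon sequence from GENCODE M21 transcripts on the minus strand, of Gm47761 in an MMERGLN locus (chr10:17322929-17323228) and of 9330175E14Rik in an RMER21B locus (chr8:94431784-94432083). In these and in the first sequence, capitals mark CCAAT or its reverse complement ATTGG. The marks show letters only, and a role in any promoter was not tested.
Gm42048 start, MMERGLN: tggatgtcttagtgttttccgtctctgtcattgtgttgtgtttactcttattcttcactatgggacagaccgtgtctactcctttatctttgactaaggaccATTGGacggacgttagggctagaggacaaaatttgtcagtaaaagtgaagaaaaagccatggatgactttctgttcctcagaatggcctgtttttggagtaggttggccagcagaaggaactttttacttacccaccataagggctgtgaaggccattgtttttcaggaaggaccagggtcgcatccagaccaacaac
D17H6S56E-5 start, RLTR4_Mm: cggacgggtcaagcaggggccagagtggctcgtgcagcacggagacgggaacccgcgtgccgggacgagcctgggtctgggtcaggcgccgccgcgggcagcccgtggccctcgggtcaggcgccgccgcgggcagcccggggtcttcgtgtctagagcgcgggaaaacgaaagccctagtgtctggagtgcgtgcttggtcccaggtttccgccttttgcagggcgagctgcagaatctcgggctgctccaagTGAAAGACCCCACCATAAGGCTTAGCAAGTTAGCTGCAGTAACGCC
Gm47761 exon, MMERGLN: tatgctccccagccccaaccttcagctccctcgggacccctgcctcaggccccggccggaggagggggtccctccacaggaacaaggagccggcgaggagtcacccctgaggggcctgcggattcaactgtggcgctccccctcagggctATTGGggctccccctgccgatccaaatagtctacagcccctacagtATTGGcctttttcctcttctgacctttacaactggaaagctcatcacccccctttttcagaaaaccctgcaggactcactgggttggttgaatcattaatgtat
9330175E14Rik exon, RMER21B: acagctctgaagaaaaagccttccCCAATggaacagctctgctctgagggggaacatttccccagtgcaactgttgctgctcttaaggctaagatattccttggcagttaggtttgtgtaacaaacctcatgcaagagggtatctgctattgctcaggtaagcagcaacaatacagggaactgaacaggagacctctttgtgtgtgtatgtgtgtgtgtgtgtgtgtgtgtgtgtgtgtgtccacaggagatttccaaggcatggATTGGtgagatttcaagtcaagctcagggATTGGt

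Start windows of 300 bases were available in RefSeq (GRCm38.p6) for 27025 genes, 32851 windows in all. Of these, 292 windows of 278 genes shared a base with an ERV1 locus of the set. Another count, of windows wholly inside a locus, gave 102 windows of 98 genes, and 25 of the 102 were in a locus that passed the count filter. The letters CCAAT, a promoter element found in MuLV LTRs, stood on either strand in 62 of the 102 windows (60.8%), against 37.4% of all windows. TATAAA stood in 26 of the 102 (25.5%, against 13.6%), and AATAAA, the polyadenylation signal, also in 26 (25.5%, against 19.6%). The start window in the MMERGLN locus had a GC content of 44.3%, and that of D17H6S56E-5, most of which lies outside the LTR, 67.0%.

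Counts at ERV1 loci were concentrated in few places. The MuLV and RLTR4 names held 43.9% of them and the MMERGLN names 21.6%, over all libraries, although these have only 1286 and 1834 of the 58724 loci. The MMERGLN share ran from 6.91% in WT 0 h library 2 to 37.4% in KO 24 h library 2. In the KO 24 h libraries it was 36.8% and 37.4%, above the 31.3% and 34.6% of the MuLV and RLTR4 names. The 2 highest loci held 35.9% of all counts, the 10 highest 55.5% and the 50 highest 70.5%. By position in GENCODE M21, 56.2% of counts over all libraries fell in loci that overlap an exon, 30.6% in introns and 13.3% between genes. The exonic share ran from 34.8% to 69.6%. Introns held more than exons in KO 0 h library 2 (43.2%, against 40.5%) and in the WT 0 h libraries (47.5% and 46.5%, against 34.8% and 35.6%). Tested loci of the MuLV and RLTR4 names had a median length of 5674 bases and those of MMERGLN 6602 bases, against medians from 308 to 570 bases in the other name groups. Summed over the whole set, KO libraries had 1992 and 2611 CPM, against 2121 and 2097 CPM in WT libraries, at 0 h. The sums were 2707 and 3229.5 CPM in KO libraries, against 2455 and 2454 CPM in WT libraries, at 8 h, and 2471 and 3076 CPM in KO libraries, against 2962 and 2739.8 CPM in WT libraries, at 24 h. KO library 2 was the highest at every time, and the groups overlapped at 0 and 24 h.

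The name groups differed in how they moved. MuLV and RLTR4 loci together stood at 773 and 1063 CPM in KO cells, against 1645 and 1605 CPM in WT cells, at 24 h, and their groups overlapped at 0 h and at 8 h. MMERGLN loci had 375 and 507 CPM in KO cells, against 166 and 145 CPM in WT cells, at 0 h, and 678 and 823 CPM in KO cells, against 409 and 344 CPM in WT cells, at 8 h. At 24 h they had 909 and 1150.4 CPM in KO cells, against 633 and 481 CPM in WT cells, so that KO libraries were higher at every time. Most of the KO sum at each time came from a single locus over Gm42047, described below. Without that locus, the other MMERGLN loci together were lower in both KO libraries than in both WT libraries at 24 h. That order lay with the MMERGLN loci in D17H6S56E-5 and near Trp53inp1, also described below and picked by their values. Without these as well, the rest together were higher in both KO libraries than in both WT libraries at 24 h. RMER and RodERV21 loci stood at 172 and 197 CPM in KO cells, against 132 and 126 CPM in WT cells, at 24 h. MLTR loci stood at 88.9 and 92.7 CPM in KO cells, against 61.9 and 62.9 CPM in WT cells. These sums are descriptions and were not tested.

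**Figure D1:**
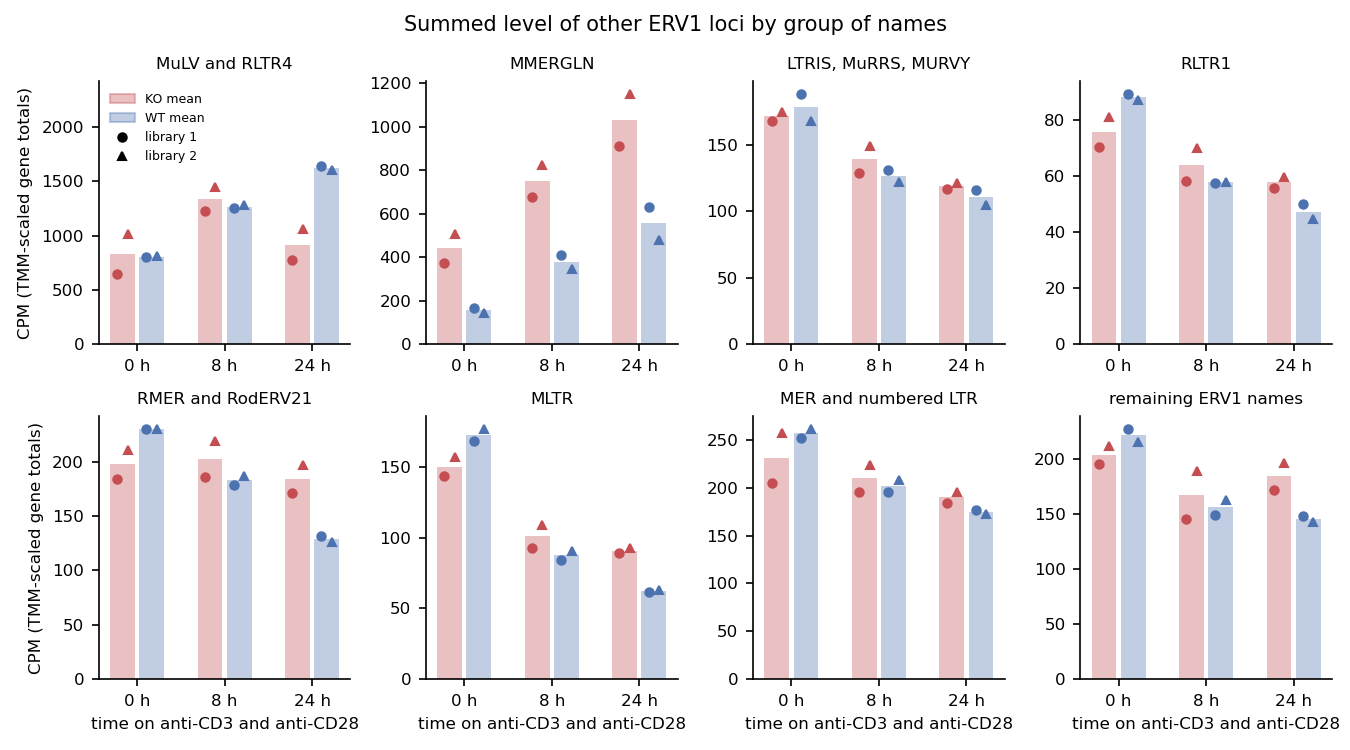
Summed level (CPM) of the ERV1 loci in each of 8 groups of subfamily names, at 0, 8 and 24 h. Bars are means of 2 libraries, KO left of WT, with circles for library 1 and triangles for library 2. At 24 h the MuLV and RLTR4 names stood at 773 and 1063 CPM in KO cells and at 1645 and 1605 CPM in WT cells. The MMERGLN sum was higher in KO cells at every time, led by a single locus over Gm42047. The other MMERGLN loci together were lower in KO cells at 24 h, but higher once those in D17H6S56E-5 and near Trp53inp1 were also left out.

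Tests used edgeR's quasi-likelihood test with Benjamini-Hochberg adjustment over all 1180 repeat subfamilies or all 37251 repeat loci that passed the filter. An adjusted p under 0.05 counts as a call. At 0 h, KO cells were higher in 3 of the 109 ERV1 subfamilies and lower in 0 (2.75% called), against 0.508% higher, 0.0847% lower and 0.593% in total over all repeat subfamilies. Of the 585 loci 7 passed (1.2%), 6 higher and 1 lower, against 0.225% higher, 0.0322% lower and 0.258% in total over all repeat loci. At 8 h no subfamily passed in edgeR, while 0.0847% of all repeat subfamilies were higher and 0.169% lower (0.254% in total). An unadjusted p under 0.05 was seen in 8 ERV1 subfamilies, and DESeq2 called 1. At the same time 4 loci passed (0.684%), all higher, against 0.207% higher, 0.0242% lower and 0.231% in total over all repeat loci.

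At 24 h, 16 subfamilies were higher in KO cells and 8 lower (22% called), against 13.4% higher, 2.29% lower and 15.7% in total over all repeat subfamilies. The median log2 fold change was 0.39 over the 109, against 0.34 over all. Among loci 16 were higher and 18 lower (5.81%), against 2.44% higher, 1.51% lower and 3.96% in total over all repeat loci. Scaling by repeat counts in place of gene counts shifted the median subfamily fold change at 24 h by -0.295, and the calls became 4 higher and 12 lower, which kept all 8 lower calls and 4 of the 16 higher ones. Under that scaling the loci became 12 higher and 29 lower, which kept all 18 lower calls and 11 of the 16 higher ones. Single libraries decided several counts. Here and below, "without" any or either of several libraries means that each was left out alone in its own fit. Of the 3 subfamilies at 0 h, 0 passed without KO 0 h library 2, and 1 without any WT library of 0 or 24 h. The 24 at 24 h became 15 without KO 24 h library 1 or either WT 8 h library, 5 without KO 24 h library 2, 4 without WT 24 h library 1 and 6 without WT 24 h library 2. The 7 loci at 0 h became 18, 9 of them lower, without KO 0 h library 2, and 14 to 16 without any library of 8 or 24 h. The 4 at 8 h became 7 to 10, all higher, without any library of 0 or 24 h, KO 8 h library 1 or WT 8 h library 1.

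In WT cells activation changed many loci. At 8 h 10 subfamilies stood above their 0 h level and 40 below it (45.9% called), against 5.59% up, 37.5% down and 43.1% in total over all repeat subfamilies. Among loci 70 were up and 166 down (40.3%), against 9.57% up, 22.2% down and 31.7% in total, and the median change was -0.79, against -0.45 over all repeat loci. At 24 h 10 subfamilies stood above their 0 h level and 51 below it (56%), against 4.92% up, 57.5% down and 62.5% in total. Among loci 63 were up and 203 down (45.5%), against 7.32% up, 32.4% down and 39.7% in total, and the median was -0.93 in the set and over all. These falls are relative to gene counts. With repeat counts as the scale, the subfamily median shifted by 0.44 at 8 h and 0.72 at 24 h. The calls became 15 up and 20 down at 8 h and 28 up and 18 down at 24 h, and all 10 rises at each time were kept. The 50 subfamilies at 8 h became 33 without WT 0 h library 1 and 31 without WT 8 h library 1.

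The KO effect at 24 h differed from that at 0 h in 15 subfamilies, with 9 more positive and 6 more negative at 24 h (13.8%), against 7.37% and 1.36%, or 8.73% in total, over all repeat subfamilies. It differed at 23 loci, with 8 more positive and 15 more negative (3.93%), against 0.811% and 0.599%, or 1.41% in total, over all repeat loci. With repeat counts as the scale these became 1 and 8 subfamilies and 4 and 21 loci, and with gene totals alone 1 and 5 subfamilies. The 15 subfamilies became 4 to 7 without KO 0 h library 1, KO 24 h library 2 or any WT library of 0 or 24 h. They became 34 without KO 0 h library 2 and 24 without either KO 8 h library. For the difference between 8 h and 0 h nothing passed in edgeR, in the set or among all repeats (0%). An unadjusted p under 0.05 was seen in 14 subfamilies and 37 loci, and 4 loci passed without KO 0 h library 2.

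Summed, the MuLV and RLTR4 names were lower in KO cells at 24 h. Of 6 subfamilies tested, 4 were lower and 0 higher at that time, against 2.29% lower and 13.4% higher over all repeat subfamilies. Of the 4, RLTR30B_MM~RLTR4_MM-int is a single locus, and most of the RLTR4_Mm difference lay at a single LTR. RLTR4_MM-int, the name with the most loci, passed in no KO comparison. None of the 6 passed at 0 or 8 h in edgeR, against 0.593% and 0.254% over all repeat subfamilies. DESeq2 called 2 at 0 h, both higher, MuLV-int (1.05, adjusted p = 0.0037) and RLTR4_Mm (1.13, adjusted p = 0.0148). The proviruses named MuLV-int~RLTR4_Mm, 19 loci, had 581 and 683 CPM in KO cells, against 1007 and 976 CPM in WT cells, at 24 h (log2 fold change -0.65, SE 0.12, adjusted p = 0.00249). Both KO libraries lay below both WT libraries. They had 224 and 299 CPM in KO cells, against 227 and 244 CPM in WT cells, at 0 h, and 998 and 970.2 CPM in KO cells, against 967 and 948 CPM in WT cells, at 8 h, with groups that overlapped at 0 h and lay close together at 8 h. In WT cells they rose by 2.02 at 8 h and 2.07 at 24 h on the log2 scale, against 0 h. With exonic loci left out, the KO effect at 24 h was -1.27 (adjusted p = 0.142), and the WT change at 8 h turned round to -0.14 (adjusted p = 0.867) and that at 24 h was 0.89 (adjusted p = 0.191). The exonic locus described next holds most of the counts.

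That locus, chr5:23700579-23709245 (8667 bases), covers exons of the noncoding transcript AI506816, and RefSeq places the protein-coding gene Gm42226 inside it. It was the highest of all ERV1 loci, at a mean of 542 CPM or 62.6 CPM per kb. It had 134 and 129 CPM in KO cells, against 116 and 109.9 CPM in WT cells, at 0 h, and 918 and 791 CPM in KO cells, against 881 and 824 CPM in WT cells, at 8 h. At 24 h it had 525 and 563 CPM in KO cells, against 798 and 717 CPM in WT cells. Levels rose in every stimulated library, and KO libraries lay below WT libraries at 24 h and overlapped them at 8 h. The WT rise was 2.91 at 8 h and 2.74 at 24 h on the log2 scale. The KO effect at 24 h was -0.48 (SE 0.11, adjusted p = 0.00282), a call lost without KO 24 h library 1 or WT 24 h library 1 (adjusted p from 0.0865 to 0.104). AI506816 in the gene table had a log2 fold change of -0.51 at 24 h (adjusted p = 0.00179).

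The subfamily named MuLV-int alone, 250 loci, fell and then rose in WT cells, with 23.4 and 16.3 CPM at 0 h, 6.34 and 7.08 CPM at 8 h and 47.1 and 43.3 CPM at 24 h. KO cells had 39.8 and 41.4 CPM at 0 h, 9.99 and 13.5 CPM at 8 h and 8.71 and 15.1 CPM at 24 h. KO libraries were thus above WT libraries at 0 and 8 h and far below them at 24 h. The KO effect was 1.03 (adjusted p = 0.0566; 0.00207 with repeat counts as the scale and 0.00983 with no filter) at 0 h, 0.81 (adjusted p = 0.487) at 8 h and -1.92 (adjusted p = 0.000122) at 24 h. The difference between 24 h and 0 h was -2.95 (SE 0.33, adjusted p = 0.000122). Most of these counts came from 1 locus in an intron of Cep85, a centrosomal protein gene (chr4:134162052-134163888), which had 7.24 and 13.4 CPM in KO cells, against 44.9 and 41.2 CPM in WT cells, at 24 h (log2 fold change -2.06, adjusted p = 5.31e-06). Adjoining RLTR4_MM-int~RLTR4_Mm rows, chosen after their values were seen, had -2.03 (adjusted p = 0.00262) at chr4:134159391-134162061 and -1.12 (adjusted p = 0.0107) at chr4:134163888-134164702. Cep85 itself had -0.25 (adjusted p = 0.0542).

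Rows named RLTR4_Mm alone were also lower at 24 h, with 6.26 and 8.13 CPM in KO cells, against 13.8 and 10.98 CPM in WT cells (log2 fold change -0.79, SE 0.25, adjusted p = 0.0457). At 0 h they had 8.64 and 12.2 CPM in KO cells, against 4.72 and 4.93 CPM in WT cells (log2 fold change 1.11, adjusted p = 0.0765; 0.000897 with repeat counts as the scale and 0.0093 with no filter), so the order of the genotypes turned round without overlap. Most of the 24 h difference lay at a single LTR at the start of D17H6S56E-5, given below. Without it, the other rows of this name together overlapped between the genotypes at 24 h and were still higher in both KO libraries at 0 h. The 24 h call was lost without either WT 0 h library, either WT 8 h library, either KO 24 h library or either WT 24 h library (adjusted p from 0.0647 to 0.209) and with gene totals alone (0.0684). RLTR30B_MM~RLTR4_MM-int is a single locus with a mean of 7.33 counts per library. Its KO effect at 24 h was -1.90 (adjusted p = 0.0402), a call lost without either WT 0 h library, either WT 8 h library, either KO 24 h library or either WT 24 h library (adjusted p from 0.0612 to 0.203), with gene totals alone (0.0516), with no filter (0.0603) and without the KO libraries numbered 1 (0.144).

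A provirus between genes gave the largest fall at 24 h among called loci with a mean count of at least 10. RLTR4_MM-int~RLTR4_Mm at chr13:21812410-21820196 lies 264 bases from Hist1h4m, a histone H4 gene. It had 2.92 and 4.36 CPM in KO cells, against 1.53 and 0.902 CPM in WT cells, at 0 h, and 0.226 and 0.386 CPM in KO cells, against 0.11 and 0 CPM in WT cells, at 8 h. At 24 h it had 0.707 and 1.40 CPM in KO cells, against 21.4 and 16.9 CPM in WT cells. Few counts were seen at 8 h in either genotype, and the high level at 24 h was in WT libraries alone. The KO effect was 1.57 (adjusted p = 0.0141) at 0 h and -4.17 (SE 0.33, adjusted p = 6.41e-13) at 24 h, and the difference between them was -5.75 (adjusted p = 2.87e-12). In WT cells the locus was 3.96 higher at 24 h than at 0 h on the log2 scale. At 8 h it held 2 counts, against 41 at 0 h, a ratio of 0.0465 with a 95% exact counting interval from 0.00545 to 0.179.

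Other copies moved otherwise. An RLTR4_MM-int~RLTR4_Mm locus at chr8:90886291-90891958, over an exon of the chromatin remodeller gene Chd9, was higher, with 5.28 and 4.95 CPM in KO cells, against 1.35 and 1.46 CPM in WT cells, at 24 h (log2 fold change 1.86, adjusted p = 0.00022). A MuLV-int~RLTR4_Mm locus over an exon of Cnbd2 (chr2:156356556-156363605), chosen after its values were seen, had 1.90 and 3.82 CPM in KO cells, against 8.77 and 10.3 CPM in WT cells. Its KO effect was -1.73 (adjusted p = 5.54e-05), and that of Cnbd2 was 0.50 (adjusted p = 0.406). RLTR4_MM-int at chr1:164228654-164228848, 8378 bases from the coagulation factor gene F5, fell by 3.80 on the log2 scale (adjusted p = 0.000137). As a subfamily, RLTR4_MM-int (902 loci) passed in no KO comparison, with log2 fold changes of -0.10, 0.21 and -0.04 at 0, 8 and 24 h. In WT cells it fell by 1.19 at 8 h and 1.25 at 24 h. Its highest locus lies in an intron of Ctse, the gene of the protease cathepsin E (chr1:131643342-131650874). WT cells had 158 and 153 CPM there at 0 h, 30.96 and 29.3 CPM at 8 h and 14.5 and 17.03 CPM at 24 h, falls of 2.37 and 3.30 on the log2 scale, and no KO effect passed. The KO effect at 24 h passed with only the libraries compared (0.59, adjusted p = 0.041) and with 10 of the single libraries left out (0.0011 to 0.0158), and that at 8 h without KO 8 h library 1 (0.0446).

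RLTR4_MM-int~RLTR4_Mm, a subfamily of 62 loci, did not pass at 24 h, with 93.2 and 244 CPM in KO cells, against 462 and 488 CPM in WT cells (log2 fold change -1.49, SE 0.61, adjusted p = 0.142). Its KO libraries differed widely, and both lay below both WT libraries. Without the 3 KO libraries numbered 1 the fold change was -0.96 (adjusted p = 2.18e-08), and without those numbered 2 it was -2.35 (adjusted p = 4.65e-15). These alternatives were added after the data were seen. They gave 0.39 and -0.69 at 0 h and 0.64 and -0.62 at 8 h, so no direction is given for those times. A pair of adjoining loci in an intron of Camk2b, a calcium/calmodulin kinase gene, held many of the counts. At chr11:6008771-6011515 there were 51.04 and 111 CPM in KO cells, against 199.9 and 205 CPM in WT cells, at 24 h (log2 fold change -1.32, adjusted p = 0.281). At chr11:6005652-6008773, a MuLV-int~RLTR4_Mm row, there were 40.8 and 98.2 CPM in KO cells, against 184 and 159 CPM in WT cells (-1.30, adjusted p = 0.352). Every KO library was below every WT library in both rows, although neither passed. With repeat counts as the scale both passed, at -1.64 (adjusted p = 2.48e-05) and -1.62 (adjusted p = 0.016), and both also passed without the KO libraries numbered 1 (-0.86 and -0.80) or 2 (-1.99 and -2.07).

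**Figure D2:**
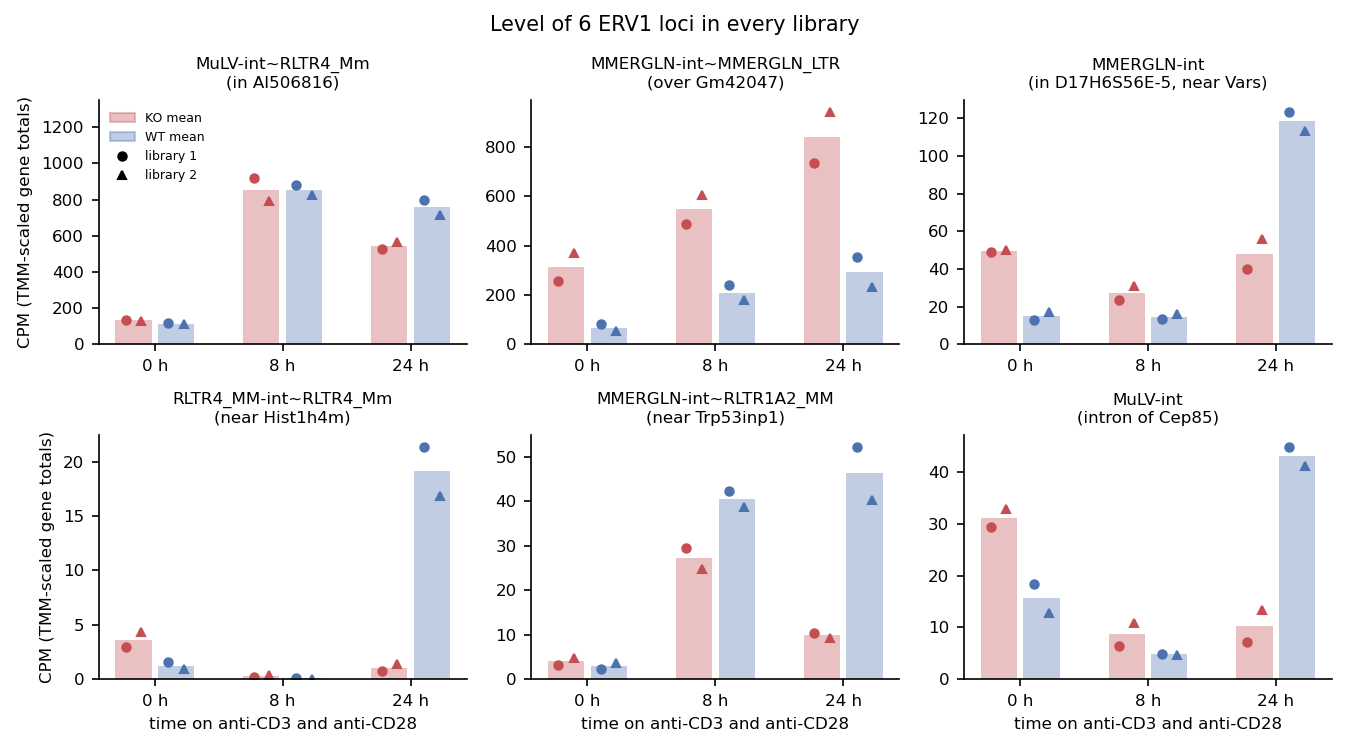
Level (CPM) of 6 loci at 0, 8 and 24 h; bars are means of 2 libraries, KO left of WT, with circles for library 1 and triangles for library 2. The MuLV locus in AI506816 rose in both genotypes, the RLTR4 locus near Hist1h4m reached 21.4 and 16.9 CPM in WT cells, and the MMERGLN locus over Gm42047 stood higher in KO libraries at each time.

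Copies of the MuLV and RLTR4 names also separated the KO libraries by number. Of 57 such loci with a mean count of at least 10 in KO cells, 16 (28.1%) were at least 4-fold higher in KO library 2 than in KO library 1 at all 3 times, after 0.1 CPM was added. None was higher in library 1. No other ERV1 locus of KO cells did so, which makes 16 of 339 (4.72%). The rule took 0 of 22 MMERGLN loci, 0 of 95 VL30 loci, 4 of 205 loci of the IAP retroviruses (1.95%) and 25 of all 20061 repeat loci (0.125%). In WT cells it took 2 of 63 MuLV and RLTR4 loci (3.17%) and 19 of 315 IAP loci (6.03%). Of all 18536 repeat loci 31 were higher in number 2 and 6 in number 1 (0.2%). The rule was chosen after the data were seen and gives a description. At chr5:24217950-24222152 the KO libraries numbered 1 had 0 CPM at 0, 8 and 24 h, and those numbered 2 had 10.8, 5.35 and 4.90 CPM. The WT libraries had 0.767 and 5.77 CPM at 0 h, 0.0551 and 2.22 CPM at 8 h, and 1.61 and 13.6 CPM at 24 h. At chr8:85126736-85132242, over the transcript Gm42031, the KO libraries numbered 1 had 0.66, 0.39 and 0.27 CPM, and those numbered 2 had 9.07, 15.9 and 23.9 CPM. The basophil and mast cell marker sums were also higher in KO library 2 than in KO library 1 at each time, for example 785 against 296 CPM at 0 h. Their part in this split was not tested.

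**Figure D3:**
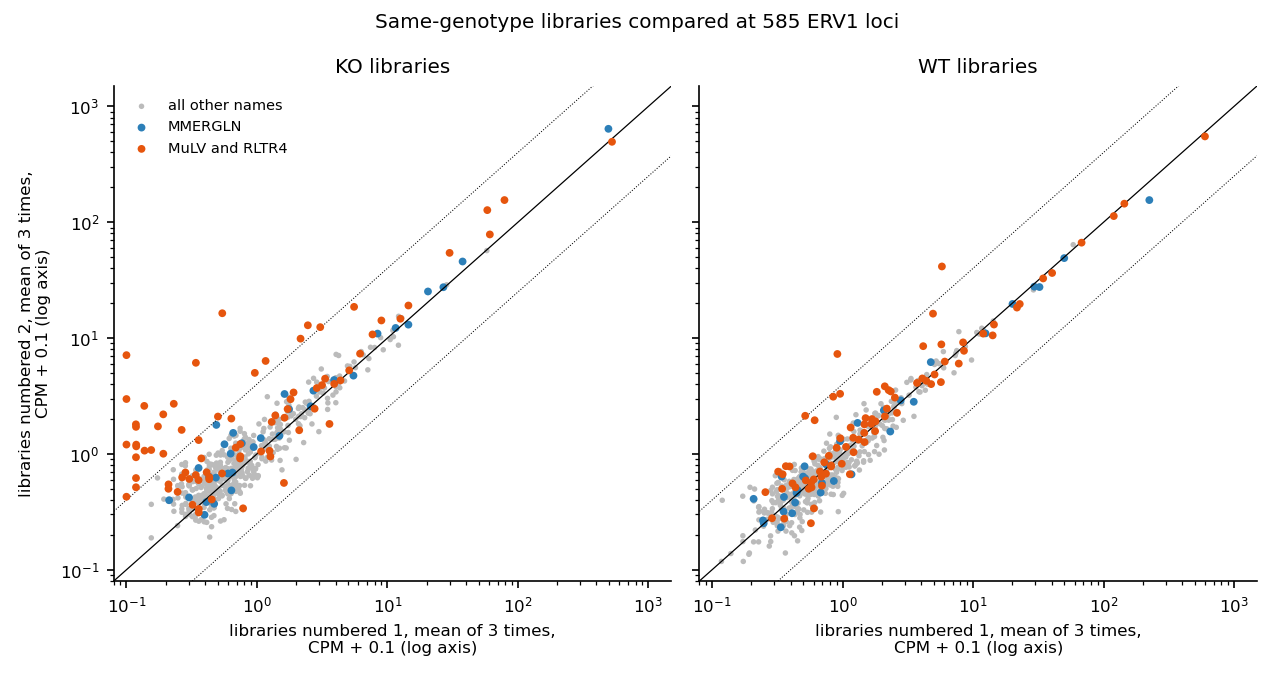
Level of each of the 585 ERV1 loci in the libraries numbered 1 (x axis, mean of 3 times) and numbered 2 (y axis), as CPM plus 0.1 on log axes, for KO (left) and WT (right); the solid line marks equal levels and dotted lines a 4-fold difference. A cloud of MuLV and RLTR4 loci (orange) of KO cells lies above the upper dotted line, and 16 of 57 were above it at all 3 times, against 0 of 22 MMERGLN loci (blue).

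MMERGLN rows that join the internal sequence to its own LTR were higher in KO cells, while the internal sequence alone was higher at 0 h and lower at 24 h. Of 5 MMERGLN subfamilies tested, 2 passed at 0 h, both higher, and 4 at 24 h, 2 higher and 2 lower. Over all repeat subfamilies 0.508% were higher and 0.0847% lower at 0 h, and 13.4% were higher and 2.29% lower at 24 h. Most of the difference in MMERGLN-int~MMERGLN_LTR, in MMERGLN-int and in MMERGLN-int~RLTR1A2_MM lay at a single locus of each, as given below. MMERGLN-int~MMERGLN_LTR (70 loci) had 267 and 385 CPM in KO cells, against 87.9 and 62.5 CPM in WT cells, at 0 h, and 522 and 648 CPM in KO cells, against 253 and 192 CPM in WT cells, at 8 h. At 24 h it had 776 and 994 CPM in KO cells, against 384 and 266 CPM in WT cells. Every KO library was above every WT library of its time. The log2 fold changes were 2.12 (SE 0.27, adjusted p = 0.0067) at 0 h, 1.39 (adjusted p = 0.0876) at 8 h and 1.45 (adjusted p = 0.00962) at 24 h. The 0 h call was lost without KO 0 h library 2 or either KO 8 h library (adjusted p from 0.0591 to 0.119), with no filter (0.0668), with the replicate number as a block (2.12, adjusted p = 0.0589), and without the KO libraries numbered 1 (0.268) or 2 (0.0653). The 24 h call was lost without KO 24 h library 2 (adjusted p = 0.0781) and without the KO libraries numbered 1 (0.0601) or 2 (0.125). With exonic loci left out the fold changes were 0.56 at 0 h and 0.34 at 24 h, and neither passed.

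Nearly all of it came from chr8:121832845-121841264 (8420 bases), which covers exons of Gm42047 and holds the start of Gm42048 printed above. It had 255 and 371 CPM in KO cells, against 80.4 and 53.6 CPM in WT cells, at 0 h. It had 489 and 607 CPM in KO cells, against 239 and 180.3 CPM in WT cells, at 8 h, and 737 and 944 CPM in KO cells, against 354 and 232 CPM in WT cells, at 24 h. KO libraries lay above WT libraries at each time, and levels rose with stimulation in both genotypes. The rise in WT cells was 1.64 (adjusted p = 0.013) at 8 h and 2.13 (adjusted p = 0.00382) at 24 h on the log2 scale, and the first was lost without the KO libraries numbered 1 (0.0541) or 2 (0.0586). The KO effects were 2.22 (adjusted p = 0.15), 1.39 (adjusted p = 0.619) and 1.52 (adjusted p = 0.0758) at 0, 8 and 24 h in edgeR's test over loci and did not pass. In DESeq2 all 3 passed (adjusted p = 4.87e-15, 0.000135 and 5.9e-07), as they did with repeat counts as the scale and with no filter. Gm42047 in the gene table had a log2 fold change of 1.52 at 24 h (adjusted p = 0.00358).

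Some MMERGLN proviruses had almost no counts in resting WT cells and many after stimulation. At chr17:36100734-36106967, 2267 bases from the histocompatibility pseudogene H2-T-ps, KO cells held 44 counts at 0 h, against 2 in WT cells. The ratio was 19.4 with a 95% exact counting interval from 5.05 to 165 (adjusted p = 3.79e-06; 0.198 with only the libraries compared). The locus had 9.99 and 11.9 CPM in KO cells, against 4.19 and 3.63 CPM in WT cells, at 8 h (log2 fold change 1.48, adjusted p = 0.000503), and 13.8 and 19.4 CPM in KO cells, against 9.74 and 14.5 CPM in WT cells, at 24 h (0.45, adjusted p = 0.342). KO libraries were above WT libraries at 0 and 8 h, and the groups overlapped at 24 h. In WT cells it held 138 counts at 8 h and 450 at 24 h, against 2 at 0 h, ratios of 65.8 (17.9 to 548) and 204 (56.1 to 1688). At chr8:25122677-25130656, over RefSeq's noncoding Gm39143, there were 8.74 and 8.16 CPM in KO cells, against 1.98 and 2.17 CPM in WT cells, at 8 h (log2 fold change 2.02, adjusted p = 2.65e-05). At 24 h there were 2.67 and 4.52 CPM in KO cells, against 6.03 and 6.17 CPM in WT cells (-0.76, adjusted p = 0.137). KO libraries were the higher ones at 8 h and the lower ones at 24 h, when the test did not pass. WT cells held 73 counts at 8 h and 226 at 24 h, against 2 at 0 h, ratios of 34.8 (9.29 to 293) and 102 (28.01 to 850.3). The locus with the Gm47761 exon printed above (chr10:17317062-17324663) had 4.08 and 5.38 CPM in KO cells, against 1.02 and 0.811 CPM in WT cells, at 24 h (log2 fold change 2.36, SE 0.40, adjusted p = 3.67e-05). It was the largest rise among called MMERGLN loci at that time, and Gm47761 in the gene table had 2.36 (adjusted p = 0.000443).

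MMERGLN-int alone (1112 loci) had 78.3 and 87.8 CPM in KO cells, against 47.9 and 51.8 CPM in WT cells, at 0 h, and 74.1 and 101 CPM in KO cells, against 64.5 and 68.3 CPM in WT cells, at 8 h. At 24 h it had 84.1 and 102 CPM in KO cells, against 157 and 141 CPM in WT cells. The order of the genotypes turned round between 0 h and 24 h without overlap at either time. That turn lay with the leading locus described next. Without it, the other rows of this name together overlapped between the genotypes at 0 h. At 24 h those other rows were higher in both KO libraries than in both WT libraries. For all rows together the KO effect was 0.74 (adjusted p = 0.0459) at 0 h and -0.68 (adjusted p = 0.0108) at 24 h, and the difference was -1.42 (SE 0.22, adjusted p = 0.00121). The 0 h call was lost without KO 0 h library 2, either WT 0 h library, either WT 8 h library or either WT 24 h library (adjusted p from 0.0728 to 0.611), with gene totals alone (0.0601), with the stricter filter (0.0671) and with only the libraries compared (0.0769). The 24 h call was lost without KO 24 h library 1 or WT 24 h library 1 (adjusted p from 0.0761 to 0.0857).

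Its leading locus, chr17:34997828-34999344 (1517 bases), lies inside D17H6S56E-5, 1643 bases from the valyl-tRNA synthetase gene Vars, and had a mean of 45.5 CPM or 30.01 CPM per kb. There were 49.1 and 49.99 CPM in KO cells, against 12.7 and 17.4 CPM in WT cells, at 0 h, and 23.8 and 31.2 CPM in KO cells, against 13.4 and 15.9 CPM in WT cells, at 8 h. At 24 h there were 39.9 and 55.9 CPM in KO cells, against 123 and 113 CPM in WT cells. KO libraries were higher at 0 and 8 h and lower at 24 h, without overlap. The log2 fold changes were 1.72 (adjusted p = 1.12e-09) at 0 h, 0.90 (adjusted p = 0.00312) at 8 h and -1.31 (adjusted p = 2.6e-07) at 24 h, with a difference between 24 h and 0 h of -3.03 (adjusted p = 1.17e-12). The 8 h call was lost without KO 8 h library 2 or WT 8 h library 1 (adjusted p from 0.095 to 0.116) and with repeat counts as the scale (0.80, adjusted p = 0.195). The RLTR4_Mm LTR at the start of the same gene (chr17:35000213-35000742) had 4.40 and 4.61 CPM in KO cells, against 1.65 and 1.56 CPM in WT cells, at 0 h, and 3.54 and 5.17 CPM in KO cells, against 10.6 and 8.92 CPM in WT cells, at 24 h. It took the same course, with log2 fold changes of 1.48 (adjusted p = 0.0086) and -1.16 (adjusted p = 0.00531). An RLTR30D_RN fragment (chr17:34997541-34997629) had 2.23 (adjusted p = 0.0476) and -1.56 (adjusted p = 0.0198), and its 0 h call was lost without WT 0 h library 1 (adjusted p = 0.47), in DESeq2 (0.0929), with no filter (0.088), with the stricter filter (0.0815) and with only the libraries compared (0.389). These rows share 1 host transcript and are not independent. Nor are the subfamily values of MMERGLN-int, RLTR4_Mm and RLTR30D_RN, which include them. Vars had 0.28 (adjusted p = 0.192) at 0 h and -0.68 (adjusted p = 0.000204) at 24 h.

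RLTR30D_RN as a subfamily was higher in KO cells at 0 h and lower at 24 h. It had 3.91 and 4.66 CPM in KO cells, against 1.48 and 1.50 CPM in WT cells, at 0 h, and 4.41 and 5.01 CPM in KO cells, against 10.9 and 10.1 CPM in WT cells, at 24 h. The groups did not overlap at either time, and the log2 fold changes were 1.52 (adjusted p = 0.0431) and -1.16 (adjusted p = 0.0122). The 0 h call was lost without KO 0 h library 2, either WT 0 h library or either WT 24 h library (adjusted p from 0.0728 to 0.345), with the stricter filter (0.0587) and with only the libraries compared (0.0544). The 24 h call was lost without either KO 24 h library or either WT 24 h library (adjusted p from 0.0641 to 0.0798).

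MMERGLN internal sequence joined to RLTR1A2_MM LTRs rose in WT cells by 1.66 at 8 h and 1.65 at 24 h. It was lower in KO cells at 24 h, with 38.4 and 39.5 CPM in KO cells, against 85.3 and 68.03 CPM in WT cells (log2 fold change -0.98, SE 0.16, adjusted p = 0.000941). Most of that difference lay at a single locus, and without it the other rows of this name together overlapped between the genotypes at 24 h. The locus, chr4:11175889-11184450, lies 1511 bases from Trp53inp1, a p53 target gene, and under RefSeq's noncoding A630034I12Rik. It had 3.25 and 4.81 CPM in KO cells, against 2.18 and 3.61 CPM in WT cells, at 0 h, and 29.4 and 24.8 CPM in KO cells, against 42.2 and 38.6 CPM in WT cells, at 8 h. At 24 h it had 10.4 and 9.26 CPM in KO cells, against 52.2 and 40.2 CPM in WT cells. The groups overlapped at 0 h and lay well apart at 24 h. The KO effect at 24 h was -2.23 (SE 0.20, adjusted p = 2.25e-11), while Trp53inp1 went the other way, with 2.79 (adjusted p = 0.000449). Rows named MMERGLN_LTR alone were higher in KO cells at 24 h, with 7.13 and 10.6 CPM in KO cells, against 3.39 and 4.002 CPM in WT cells (log2 fold change 1.26, SE 0.30, adjusted p = 0.0142). The call was lost without KO 24 h library 2 or either WT 24 h library (adjusted p from 0.0796 to 0.18) and with repeat counts as the scale (0.96, adjusted p = 0.105). Among these LTRs, chr11:6526893-6527304 in an intron of the small nucleolar RNA host gene Snhg15, chosen after its values were seen, was higher by 1.26 (adjusted p = 0.0161). An MMERGLN-int locus over an exon of Birc3, an inhibitor of apoptosis (chr9:7863291-7867139, also chosen so), had 20.5 and 20.03 CPM in KO cells, against 14.2 and 12.2 CPM in WT cells. Its KO effect was 0.61 (adjusted p = 0.0456), and that of Birc3 0.33 (adjusted p = 0.0124).

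Names outside MuLV, RLTR4 and MMERGLN gave most of the higher calls at 24 h. Over all repeat subfamilies 13.4% were higher and 2.29% lower. Higher were 4 of 5 tested subfamilies with RMER and RodERV21 names, 3 of 8 with RLTR1 names, 1 of 3 with MLTR names, 2 of 41 with MER and numbered LTR names and 4 of 26 with other names, and 0 of 15 with LTRIS, MuRRS and MURVY names passed. With repeat counts as the scale, 4 of the 16 higher calls in the whole set were kept. Lower were 1 with a MER name and 1 with another name. RLTR24 had 11.97 and 12.8 CPM in KO cells, against 5.71 and 6.71 CPM in WT cells (log2 fold change 0.99, SE 0.18, adjusted p = 0.00256), and RLTR23 had 10.4 and 11.7 CPM in KO cells, against 5.54 and 5.73 CPM in WT cells (log2 fold change 0.97, adjusted p = 0.00962). MER34 was higher by 0.80 (adjusted p = 0.0267). In each of these both KO libraries were above both WT libraries. The call of RLTR24 was lost without WT 24 h library 1 (adjusted p = 0.0535) and without exonic loci (0.61). That of RLTR23 was lost without KO 24 h library 2 or either WT 24 h library (adjusted p from 0.0694 to 0.1). That of MER34 was lost without KO 24 h library 2 or either WT 24 h library (adjusted p from 0.0988 to 0.196) and with repeat counts as the scale (0.51). The more abundant MLTR14 had 73.4 and 77.7 CPM in KO cells, against 50.1 and 52.3 CPM in WT cells (log2 fold change 0.56, adjusted p = 0.0105). RMER5 had 85.8 and 100.3 CPM in KO cells, against 69.01 and 65.6 CPM in WT cells (0.47, adjusted p = 0.0306). Both were chosen after their values were seen, and their KO libraries lay above their WT libraries.

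MER34A1 was the MER name that was lower, by -0.89 (adjusted p = 0.0178). The call was lost without either KO 24 h library or either WT 24 h library (adjusted p from 0.06 to 0.143), and without exonic loci the value turned round to 0.76 (adjusted p = 0.137). A MER34A1 row in an exon of the kinetochore gene Spc25 (chr2:69193846-69194334), chosen after its values were seen, had 2.01 and 1.94 CPM in KO cells, against 8.45 and 11.2 CPM in WT cells. Its KO effect was -2.31 (adjusted p = 5.14e-07), and that of Spc25 was -1.81.

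**Figure D4:**
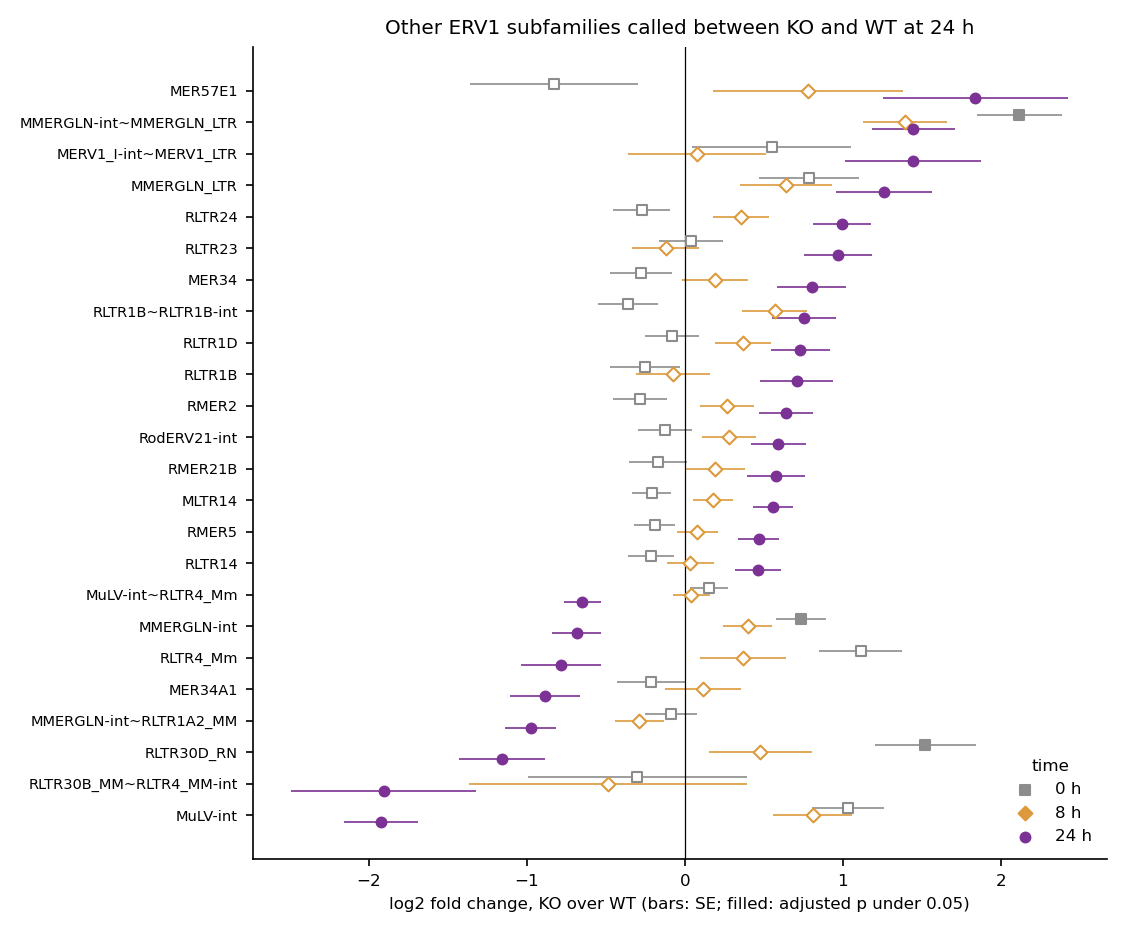
Log2 fold change of KO over WT at 0, 8 and 24 h for the 24 ERV1 subfamilies that passed at 24 h; bars are SE, and filled points have an adjusted p under 0.05. At 24 h MuLV-int stood lowest at -1.92, and MMERGLN-int~MMERGLN_LTR stood at 1.45 and was positive at all 3 times.

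Among single LTRs outside the MuLV, RLTR4 and MMERGLN names, several with large changes lay in host transcripts. RMER5 in an exon of Cd200r3, a receptor of basophils and mast cells (chr16:44980814-44981237), passed at all 3 times and was chosen after its values were seen. It held 43 counts in KO cells and 3 in WT cells at 0 h, a ratio of 12.6 (4.04 to 63.6). At 8 h it held 20 counts in KO cells and 0 in WT cells, at least 6.55-fold higher against a floor of 3 counts over the group. At 24 h it held 34 in KO cells and 1 in WT cells, a ratio of 34.1 (5.72 to 1386). Cd200r3 was higher at 24 h by 5.03 (adjusted p = 0.00174), and it is on the basophil and mast cell list, whose sums at 24 h were 168 and 607 CPM in KO cells, against 9.80 and 8.60 CPM in WT cells. RMER5 at chr15:36455852-36456130, in RefSeq's noncoding Gm34316, held 12 counts in KO cells and 0 in WT cells at 24 h, at least 4.01-fold higher (adjusted p = 0.0124). The call was lost without KO 24 h library 2 or either WT 24 h library (adjusted p from 0.0925 to 0.226) and without the KO libraries numbered 2 (0.192). RMER5 in an exon of the zinc finger gene Zfp456 (chr13:67365932-67366112) was higher by 2.45 (adjusted p = 0.00705), a call lost without KO 24 h library 2 or either WT 24 h library (adjusted p from 0.0525 to 0.105).

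RLTR1B~RLTR1B-int in an intron of Dnaaf1 (chr8:119583906-119587385) fell in WT cells by 3.37 over 24 h and kept more counts in KO cells. It had 7.65 and 7.01 CPM in KO cells, against 10.7 and 8.42 CPM in WT cells, at 0 h, and 3.65 and 3.55 CPM in KO cells, against 0.646 and 1.19 CPM in WT cells, at 24 h. The difference of the KO effects was 2.35 (adjusted p = 0.00025). MLTR14 in an intron of Hemk1 (chr9:107332682-107333179) had 0.165 and 0.551 CPM in KO cells, against 1.003 and 0.962 CPM in WT cells, at 0 h, and 4.03 and 2.75 CPM in KO cells, against 1.13 and 1.35 CPM in WT cells, at 24 h. KO libraries were the lower ones at 0 h and the higher ones at 24 h, and the difference of 2.86 (adjusted p = 0.0193) was lost without KO 0 h library 1 or KO 24 h library 1 (adjusted p from 0.104 to 0.117), with no filter (0.0672) and without the KO libraries numbered 1 (0.383). The RMER21B locus of the exon printed above (chr8:94431701-94432083), chosen after its values were seen, had 3.65 and 2.91 CPM in KO cells, against 1.18 and 1.41 CPM in WT cells, at 24 h. Its KO effect was 1.33 (adjusted p = 0.0202), and that of 9330175E14Rik was 0.92.

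Other LTRs of such names in host genes were lower at 24 h. RLTR14 in an exon of the exonuclease gene Exo1 (chr1:175911011-175911372) held 0 counts in KO cells and 30 in WT cells, at least 9.97-fold lower. RLTR41A2 in an intron of the centriole gene Sass6 (chr3:116622704-116623164) held 2 in KO cells and 42 in WT cells, a ratio of 0.0478 (0.0056 to 0.184). These 2 were chosen after their values were seen. LTRIS_Mus in an intron of Incenp, a chromosomal passenger gene (chr19:9879733-9880318), was lower by -2.48 (adjusted p = 0.00352), a call lost without either KO 24 h library or WT 24 h library 1 (adjusted p from 0.0512 to 0.112). The genes fell too, Exo1 by 4.05, Sass6 by 1.73 and Incenp by 2.53 on the log2 scale. At 0 h the lower locus was LTRIS2 at chr5:110529870-110530371, 3891 bases from the noncoding A630023P12Rik (log2 fold change -2.37, SE 0.54, adjusted p = 0.0296). The call was lost without KO 0 h library 1 or WT 0 h library 1 (adjusted p from 0.25 to 0.468), with no filter (0.0871), with the stricter filter (0.0518), with only the libraries compared (0.145) and without the KO libraries numbered 1 (0.198).

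In WT cells the largest subfamily falls with activation were in LTRIS, MER92 and RLTR30 names. At 8 h RLTR30 fell by 2.21, MER92A by 2.20, LTRIS3 by 2.05, RLTR1B-int by 1.96 and MuLV-int by 1.57 on the log2 scale. At 24 h MER92A fell by 3.51, LTRIS3 by 2.99, LTRIS4A by 2.45, MER92-int by 2.44 and RLTR30 by 2.25. LTRIS3, for example, had 8.59 and 7.14 CPM in WT cells at 8 h, against 32.4 and 32.7 CPM at 0 h, a difference far larger than that between libraries. Rises at 8 h were led by RLTR48B (2.19, but 0.07 without exonic loci), MuLV-int~RLTR4_Mm and the MMERGLN names given above. MMERGLN_LTR also rose (0.98), a call lost without WT 0 h library 2 or WT 8 h library 1 (adjusted p from 0.165 to 0.216). At 24 h RLTR30D_RN (2.81) and MMERGLN-int (1.58) were also among the rises.

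Single loci appeared from 0 counts in resting WT cells. MLTR14 at chr3:37758397-37758766 held 107 counts at 8 h and 67 at 24 h, against 0 at 0 h, at least 33.99-fold and 20.2-fold higher. MER31B at chr15:36452026-36452280 held 52 at 8 h, against 0, at least 16.5-fold higher. RLTR30B_MM at chr6:145078453-145078929, near Bcat1, the cytosolic branched-chain aminotransferase gene, held 32 counts at 8 h, against 0, at least 10.2-fold higher. Bcat1 rose by 7.73 on the log2 scale. Among falls at 8 h, RMER5 near Ripor2 (chr13:24736167-24736602) had -4.40, and RLTR48A near the actin crosslinker gene Actn1 (chr12:80160906-80161522) had -4.05. MLTR14 in Klhl6 (chr16:19951634-19951816) and MLTR12 at chr5:142898028-142898222 held 0 counts at 24 h, against 51 each at 0 h, at least 18.8-fold lower.

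Many calls at 24 h went with a change of the host gene. Of 162 tested loci that overlap an exon 18 passed (11.1%), of 268 in introns 9 (3.36%) and of 155 between genes of GENCODE M21 7 (4.52%), against 6.64%, 2.48% and 3.89% of all repeat loci in these positions. Where the host gene was tested too, it passed in the same direction for 14 of 17 exonic, 5 of 8 intronic and 3 of 5 intergenic loci. Among all called repeat loci these shares were 93.0%, 79.4% and 73.9%, and 38.5% of all genes passed at 24 h. The host of an intergenic locus is its nearest gene, and the locus near Trp53inp1 was the only 1 of these 30 whose gene passed in the opposite direction. The 3 intergenic loci whose nearest gene passed in the same direction, that of Vars, lie inside RefSeq's D17H6S56E-5.

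**Figure D5:**
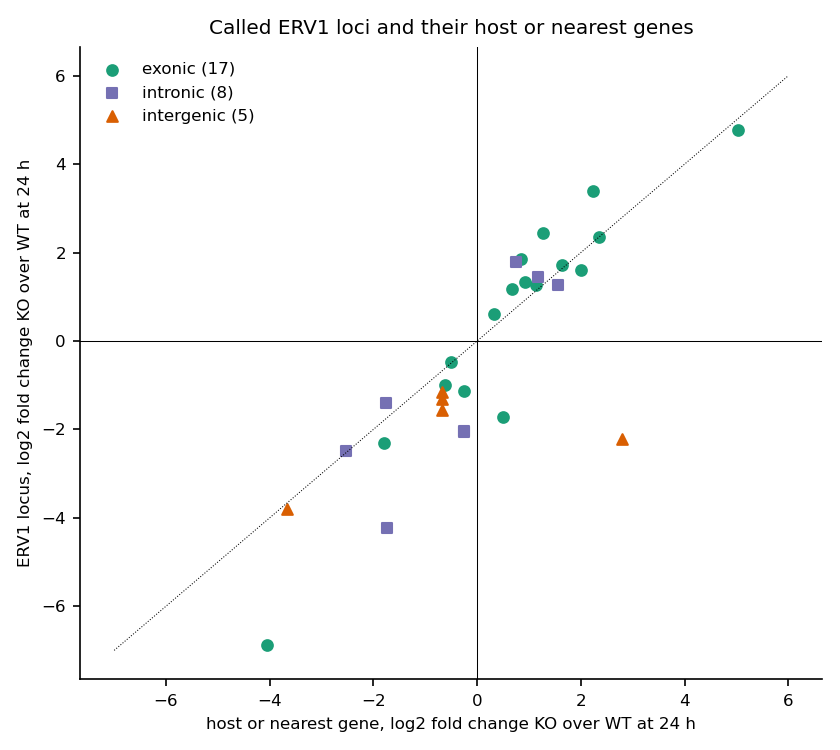
Log2 fold change of KO over WT at 24 h for the 30 called ERV1 loci with a tested host gene (y axis) against that of the gene (x axis), by position of the locus: exonic (17), intronic (8) and intergenic (5). For 14 of the 17 exonic loci the gene passed in the same direction, and the locus near Trp53inp1 lies at lower right.

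Most genes of a silencing list were lower in KO cells at 24 h. Of 29 tested genes of the silencing list (30 listed, Zfp819 not tested), 20 were lower and 2 higher in KO cells, against 20.7% lower, 17.8% higher and 38.5% in total over all genes. At 0 h 4 were higher and 0 lower, against 4.63% higher, 1.07% lower and 5.7% in total, and at 8 h 0 were higher and 2 lower, against 1.9%, 0.746% and 2.65%. Uhrf1, which brings the maintenance methyltransferase Dnmt1 to replicated DNA, had 39.5 and 41.4 CPM in KO cells, against 756 and 704 CPM in WT cells, at 24 h (log2 fold change -4.17, adjusted p = 5.22e-11). Hells, a chromatin remodeller needed for DNA methylation, had 23.2 and 22.7 CPM in KO cells, against 355 and 321 CPM in WT cells (-3.88). Chaf1b, a subunit of the histone chaperone CAF-1, had 7.24 and 7.32 CPM in KO cells, against 95.3 and 92.6 CPM in WT cells (-3.69). KO libraries lay far below WT libraries in all 3. At 0 h Uhrf1 was higher in KO cells by 1.57 (adjusted p = 1.79e-05), Chaf1a by 1.42 (adjusted p = 0.000505) and Daxx by 0.42 (adjusted p = 0.0168). At 8 h Hells had -0.67 (adjusted p = 0.0191) and Uhrf1 -0.61 (adjusted p = 0.0212). Trim28, the corepressor that recruits Setdb1, had 491 and 478 CPM in KO cells, against 735 and 709.7 CPM in WT cells, at 24 h (-0.58, adjusted p = 0.000261). The list's median log2 fold change was -0.46 at 24 h, against 0.02 over all genes.

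Of 16 tested restriction and sensing genes (17 listed, Trex1 not tested), 2 were higher at 0 h, the tetherin gene Bst2 by 0.89 (adjusted p = 0.00101) and Apobec3 by 0.40 (adjusted p = 0.0148). Over all genes 4.63% were higher and 1.07% lower at 0 h. At 8 h 1 was higher, the RNA sensor Ifih1, by 0.97 (adjusted p = 0.0338), against 1.9% higher and 0.746% lower over all genes. At 24 h 3 were higher, Fv1 (0.76), Bst2 (0.64) and the RNA sensor Ddx58 (0.50), and 4 lower, the kinase Eif2ak2 (-0.92) and the ribonuclease H2 subunits Rnaseh2b (-1.66), Rnaseh2a (-1.02) and Rnaseh2c (-0.78). Over all genes 17.8% were higher and 20.7% lower at that time (38.5% in total), near the share in this list. Of 4 transporters that serve gammaretroviruses as receptors none passed at 0 or 8 h. At 24 h Slc7a1 was higher by 0.47 (adjusted p = 0.000665), and Slc20a1 (-0.68) and Slc20a2 (-1.05) were lower. Of 10 factors known to bind MuLV LTRs, Nfic was lower at 0 h (-0.51) and Runx1 higher at 8 h (0.47). At 24 h 6 were higher and 1 lower, against 17.8% and 20.7% over all genes, with Gata3 at 1.83, Myb at 1.35 and Cbfb at -0.44. The part of these genes in the changes at the loci was not tested.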

How the data were processed

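RNA of 12 libraries was sequenced as paired reads after depletion of ribosomal RNA with a stranded kit, per the labels' protocols. The submitters' processing notes list 2 tools, STAR 2.7.1a and fastp 0.12.4, and the build mm10, and give them no roles. The authors deposited raw counts per gene (54232 genes) and raw counts per repeat locus (3156417 loci). The counter, its annotation, the handling of reads that map to many places, and the use of strand and of molecular tags were not given in these sources. Multi-mapping rules could change the counts of young MuLV, RLTR4 and MMERGLN copies most.

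Counts were fitted with edgeR 4.0.16 (R 4.3.3), by the robust quasi-likelihood test with 6 group means and 6 residual degrees of freedom, on all LINE, SINE, LTR and DNA subfamilies (1180) or loci (37251) that passed filterByExpr by group (minimum count 10, minimum total 15). Library sizes were gene-table totals times TMM factors of the gene table. Repeat-table totals ranged from 1135872 to 1872809, and the set held from 2.08% to 4.66% of them. Benjamini-Hochberg adjustment ran over all features tested, with a threshold of 0.05, for 7 two-sided contrasts. Host genes and gene lists came from the same fit on the gene table. CPM are counts scaled to that library size. The test was also run on simulated counts, with libraries drawn independently and for KO against WT at 24 h only. Its results there are not given.

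Position was taken from GENCODE M21 with bedtools 2.31.1: exonic loci share a base with an exon, and an intergenic locus has its nearest gene as host. Gene identifiers were matched to symbols for 54079 genes. Start windows and RefSeq genes came from GRCm38.p6. Coordinates are those of the repeat table, which does not state whether starts count from 0 or 1. The 197 loci whose ERV1 family name carries a question mark were not taken. Folds against a group with 0 counts use a floor of 3 counts over the group, and intervals are 95% exact binomial; both cover counting error only, since sequenced reads are not all independent molecules.

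The text names MuLV-int, every RLTR4 subfamily, MMERGLN-int and MMERGLN_LTR; per contrast up to 5 subfamilies in each direction (mean count at least 50) and 3 loci (mean count at least 10) with the largest called changes and groups that do not overlap; and the 12 highest loci. A locus that this rule names is not reported here. Others are said to be chosen after their values were seen. The members and lists were chosen with earlier results of these data known. Alternatives were RLE size factors, gene totals alone, repeat-table scaling, DESeq2 1.42.0, no filter, a stricter filter (mean CPM of 1 for subfamilies and 0.5 for loci), the replicate number as a block, only the libraries compared, exonic loci left out, and each library left out. No further columns of per-sample values were in the tables.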

Additional observations from a re-analysis of the deposited data

Results flagged for a closer look

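The results below were picked because the KO effect at 24 h differed from that at 0 h by a test of the difference itself, the interaction of genotype and time in edgeR's quasi-likelihood test, adjusted over all repeat subfamilies or loci. Values are log2 KO effects at 24 h minus those at 0 h. A negative value means a lower effect at 24 h.

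Among subfamilies with MuLV and RLTR4 names the differences were -0.80 for MuLV-int~RLTR4_Mm, -2.95 for MuLV-int and -1.90 for RLTR4_Mm. MMERGLN-int had -1.42 and MMERGLN-int~RLTR1A2_MM -0.89, and RLTR30D_RN had -2.68. MMERGLN-int, RLTR4_Mm and RLTR30D_RN each hold a row in the host transcript D17H6S56E-5 that took the same course. The differences of these subfamilies are thus not independent. That of MMERGLN-int~RLTR1A2_MM includes the locus near Trp53inp1. Positive differences were 1.45 for LTRIS_Mm, 1.27 for RLTR24, 1.115 for RLTR1B~RLTR1B-int, 1.08 for MER34 and 0.92 for RMER2. Of these positive ones, LTRIS_Mm, RLTR1B~RLTR1B-int, MER34 and RMER2 did not pass relative to repeat counts.

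Several of these differences were not stable to single libraries or settings. That of MMERGLN-int~RLTR1A2_MM was lost without either WT 0 h library, either WT 8 h library, either KO 24 h library or WT 24 h library 1 (adjusted p from 0.0514 to 0.141) and with gene totals alone (0.0541). That of MuLV-int~RLTR4_Mm was lost without WT 0 h library 1 (0.0637) or WT 24 h library 1 (0.053), and without exonic loci it was -1.41 (0.215). LTRIS_Mm lost its call without 8 of the single libraries (0.0674 to 0.194), with RLE size factors (0.0506), with gene totals alone (0.0748) and without exonic loci (0.0564). The 8 were KO 0 h library 1, both WT 0 h libraries, both WT 8 h libraries, KO 24 h library 2 and both WT 24 h libraries. RLTR24 lost it without KO 24 h library 2 (0.053), WT 24 h library 1 (0.0593) or exonic loci (0.156). RLTR1B~RLTR1B-int lost it without KO 0 h library 1, WT 0 h library 1, KO 24 h library 2 or either WT 24 h library (0.0619 to 0.137), with gene totals alone (0.0584) and without exonic loci (0.0561). MER34 (0.0755 to 0.153) and RMER2 (0.0661 to 0.115) lost it without KO 0 h library 1, either WT 0 h library, KO 24 h library 2 or either WT 24 h library. With gene totals alone they were at 0.0742 and 0.0731, and RMER2 without exonic loci at 0.0561.

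Among loci, the differences were -5.745 for the RLTR4 provirus near Hist1h4m, -3.79 for the RLTR30D_RN fragment, -3.03 for the MMERGLN-int locus in D17H6S56E-5, -3.67 for the MMERGLN provirus near H2-T-ps, -2.71 for that near Trp53inp1 and -0.70 for the MuLV locus in AI506816. The value near H2-T-ps rests on 2 counts in WT cells at 0 h. Positive differences were 2.86 for MLTR14 in Hemk1, a call lost under the alternatives given above, 2.35 for RLTR1B~RLTR1B-int in Dnaaf1 and 2.33 for the RLTR4 copy in Chd9. Both libraries of each genotype and time lay on the same side of the other genotype's libraries at 24 h for each of these except the provirus near H2-T-ps.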

How the results depend on the processing

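Of 200 named values, 102 passed, and 64 of these passed under every alternative fixed at the start that could be run. Of the 98 that did not pass, 76 passed under none. Leaving out exonic loci turned round MuLV-int~RLTR4_Mm at 8 h against 0 h in WT cells (-0.14) and MER34A1 at 24 h (0.76). RLTR4_MM-int~RLTR4_Mm turned round without the KO libraries numbered 1 at 0 h (0.39) and without those numbered 2 at 8 h (-0.62).

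Counts of subfamilies moved by more than 1.5 times as follows, and the cause was not tested. The 3 at 0 h became 5 with repeat-table scaling or DESeq2, 1 with the stricter filter, and 6 or 15 without the KO libraries numbered 1 or 2. The 0 at 8 h became 1 with repeat-table scaling, DESeq2, the stricter filter, only the libraries compared or exonic loci left out, and 12 or 1 without the KO libraries numbered 1 or 2. The 24 at 24 h became 37 without those numbered 1. The 15 for the difference between 24 h and 0 h became 6 with gene totals alone, 9 with repeat-table scaling, 8 without exonic loci, and 25 or 32 without the KO libraries numbered 1 or 2. Counts of loci moved too. The 7 at 0 h became 14 with repeat-table scaling, 4 with the stricter filter, 3 with only the libraries compared, and 13 or 32 without the KO libraries numbered 1 or 2. The 4 at 8 h became 13 or 18 without them, and the 34 at 24 h became 63 with only the libraries compared and 52 without those numbered 2. In WT cells the 236 at 8 h became 153 with DESeq2, 149 with no filter and 157 with the stricter filter, and the 266 at 24 h became 174 with the stricter filter. The 0 loci for the difference between 8 h and 0 h became 1 without the KO libraries numbered 1.

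The replicate numbers were not taken as pairs, because the labels state no pairing. Deviations of libraries with the same number still correlated over the 585 loci. The values were 0.42 to 0.51 among KO groups, 0.045 to 0.177 among WT groups and 0.033 to 0.276 between genotypes. KO libraries of the same number may thus not be independent, and the main tests treated them as independent. With the replicate block the 15 subfamilies for the difference between 24 h and 0 h became 23, the 7 loci at 0 h became 14 and the 4 at 8 h became 7; RLTR4_MM-int~RLTR4_Mm at 24 h was -1.64 (adjusted p = 0.0471). At 0 h the block gave MuLV-int an adjusted p of 0.0266 and RLTR4_Mm 0.0353, and at 24 h the locus in Ctse 0.0291. With the block within genotype, added after the data were seen, the subfamilies became 39 for 24 h minus 0 h and 1 for 8 h minus 0 h, and the loci 37 and 1.

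With single libraries left out, subfamilies called ranged over 0 to 4 at 0 h, 0 to 1 at 8 h, 4 to 29 at 24 h, 31 to 52 for WT at 8 h, 44 to 62 for WT at 24 h, 0 for 8 h minus 0 h and 4 to 34 for 24 h minus 0 h. Loci ranged over 7 to 18, 3 to 10, 24 to 51, 162 to 265, 200.0 to 315, 0 to 4 and 20 to 31 in the same order. Summed levels without exonic loci were 1324 CPM in KO cells and 1367 CPM in WT cells at 0 h, 1053 CPM in KO cells and 894 CPM in WT cells at 8 h, and 926 CPM in KO cells and 1221 CPM in WT cells at 24 h; with gene totals alone WT cells had 2404 CPM at 8 h. With 2 libraries a group and 6567 of 8939 loci below 10 counts, changes at most single loci were not detectable at this depth.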
